A study of Mus musculus with 2 samples.

Results

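The 10 genes described here encode subunits of the respiratory chain and lie on mitochondrial DNA. They were taken as a list of names (mt-Nd1 to mt-Nd6, mt-Cytb, mt-Co1, mt-Co2 and mt-Co3) and matched by Ensembl identifier to GENCODE M21, and all 10 were among the 35275 genes of the count table. RNAseq compared AML12 cells with and without repeated exposure to hydrogen peroxide. AML12 is 1 established line of hepatocytes from a CD-1 mouse carrying a transgene for human transforming growth factor alpha. Control cells (titled Young, labelled male, 3 months, liver) had no treatment, and senescent cells (titled Old, with the same strain, sex, age and tissue) were given 1 mM hydrogen peroxide on the first day and 0.75 mM on later days, for 1 h per day over 6 days, with 23 h of recovery after each exposure. Exposure was in serum-free medium, and the growth medium of the line held dexamethasone, insulin, transferrin, selenium and serum. RNA of 3 samples per condition was pooled into 1 library, so there was no replicate check and no test, and each ratio below compares 2 libraries.

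Mitochondrial DNA is a small circle present in many copies per cell. Both of its strands are transcribed by a dedicated RNA polymerase into long precursors, and most mRNAs are released when the tRNAs between them are cut out, after which most receive a poly(A) tail. The proteins they encode are the hydrophobic cores of complexes I, III and IV, the proton pumps of the inner membrane, and each must assemble with many subunits encoded in the nucleus. Hepatocytes are rich in mitochondria and oxidise fatty acids and amino acids there. Of the 10 genes, 6 belong to complex I, 1 to complex III and 3 to complex IV. On mm10, the build named in the submitters' processing notes (the same assembly as GRCm38), 9 are annotated on the plus strand and are transcribed as heavy-strand RNA, and mt-Nd6 lies on the minus strand and comes from the other precursor.

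The sequences are shown from the GENCODE M21 transcripts for 2 reasons. Whether stop codons or base composition affected these counts was not tested. First, the library was made from poly(A) RNA, and some of these genes end inside their stop codon, which the added tail completes. The last 24 bases of 5 genes follow, with the stop codon, or the part of it that the gene encodes, in capitals.
mt-Nd4: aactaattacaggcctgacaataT
mt-Cytb: acaaaatactaaaattatatccaT
mt-Co3: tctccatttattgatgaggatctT
mt-Nd2: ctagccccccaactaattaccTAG
mt-Nd6: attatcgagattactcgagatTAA
The genes mt-Nd4, mt-Cytb and mt-Co3 end in a single T, and the remaining 7 encode a full stop codon. Base composition set mt-Nd6 apart. Its sense strand held 28.1% G and 5.97% C, whereas the 9 genes of the other strand held at most 16.1% G (mt-Co1) and at least 22.1% C (mt-Nd3).

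Second, part of this DNA has near-identical copies in the nucleus, annotated as unprocessed pseudogenes. A search of all annotated nuclear transcripts for at least 95% identity over at least 100 bases found 7 copies side by side on chromosome 1 (chr1:24611535-24616197, minus strand, a span of 4663 bases), each at least 99.7% identical to its mitochondrial gene. Gm28661 matched mt-Co2, Gm28437 matched mt-Co3 and Gm28438 matched mt-Nd3 over all but the last bases, while Gm29216 matched the last 483 bases of mt-Co1 and Gm28439 the first 876 of the 1378 bases of mt-Nd4. The stretches below show each pair with differing bases, or bases past the end of the copy, in capitals, and positions counted from 1 at the first base of the mitochondrial gene. The start of mt-Co2 and its copy, bases 1 to 60, do not differ.
mt-Co2: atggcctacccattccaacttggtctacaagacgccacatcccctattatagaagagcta
Gm28661: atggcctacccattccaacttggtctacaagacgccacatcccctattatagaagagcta
The only mismatch between mt-Nd3 and its copy is T3C.
mt-Nd3: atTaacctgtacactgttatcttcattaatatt
Gm28438: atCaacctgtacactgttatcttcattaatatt
The only mismatch between mt-Co1 and its copy in the aligned part is A1066T.
mt-Co1: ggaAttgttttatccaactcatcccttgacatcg
Gm29216: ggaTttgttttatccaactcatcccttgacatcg
The copy of mt-Nd4 ends at base 876.
mt-Nd4: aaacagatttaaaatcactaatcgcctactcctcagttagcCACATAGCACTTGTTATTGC
Gm28439: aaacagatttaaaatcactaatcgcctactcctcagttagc
To put a number on the sharing, each gene was divided into all its windows of 100 bases, and a window was called shared when an annotated nuclear transcript holds it exactly on either strand. No window was shared in 4 genes (mt-Nd1, mt-Nd5, mt-Nd6 and mt-Cytb). The share was 3.19% in mt-Nd2, 30.8% in mt-Co1, 60.8% in mt-Nd4, 97.6% in mt-Nd3, 99.5% in mt-Co2 and 99.9% in mt-Co3. How reads with more than 1 match were counted is not given in the sources used here.

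The genes with nearly all windows shared had the lowest level per length in both libraries. Levels are given as RPM (reads scaled to library size, here with TMM) per kilobase of gene length, and intervals and floors cover counting error only, as reads amplified by PCR and lacking molecular identifiers do not each stand for a molecule. The highest level was that of mt-Co1, at 8262 in control and 8176 in senescent cells. The lowest 3 were mt-Co2, mt-Co3 and mt-Nd3. In the control library mt-Co2 had a level of 54.7 and mt-Co3 of 53.4, values whose counting intervals overlapped, and mt-Nd3 had 15.6. In the senescent library these levels were 52.7, 34.6 and 13.7. The level of mt-Co1 was thus 151 times that of mt-Co2 and 155 times that of mt-Co3 in the control library, although all 3 are encoded on the same strand and belong to the same complex. The levels of mt-Co2, mt-Co3 and mt-Nd3 are therefore uncertain, since almost all their windows match a copy exactly. How reads from such windows were counted is not given, and no level between genes is read from these genes below.

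**Figure D1:**
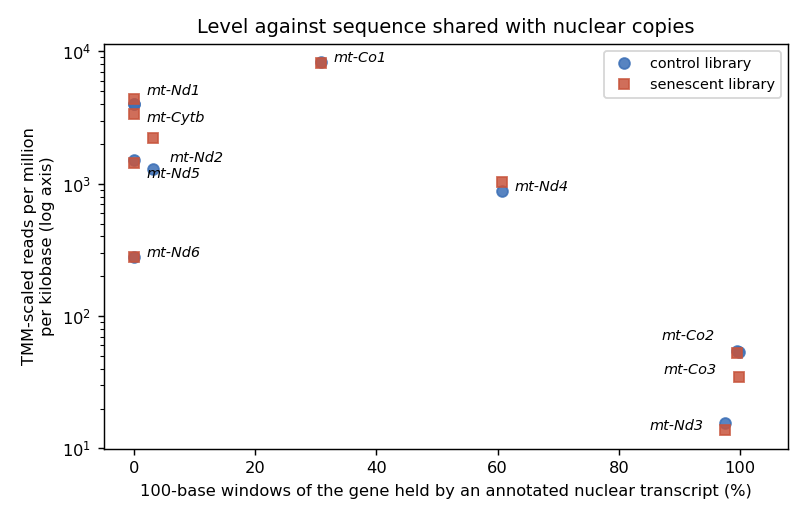
Level per length (TMM-scaled RPM per kilobase, log axis) of each of the 10 genes against the percentage of its windows of 100 bases held by an annotated nuclear transcript. Circles are the control library and squares the senescent library. The 3 genes with over 95% of windows shared lie at or below 54.7 in both libraries, and the other 7 lie at or above 277.

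The reads listed on the copies themselves were of the same order as those on the fully shared genes. Gm28661 had 1288 reads (control) and 1016 (senescent), beside 1089 and 894 on mt-Co2. Gm28437 had 1834 and 1102 reads, beside 1218 and 672 on mt-Co3, and Gm28438 had 273 and 234, beside 158 and 118 on mt-Nd3. For the partly shared genes the copies held far fewer reads than the gene. Gm29216 had 693 control and 636 senescent reads against 371189 and 313280 on mt-Co1, and Gm28439 had 265 and 267 against 35449 and 35096 on mt-Nd4. A copy on chromosome 2 that is 97.6% identical to the whole of mt-Co1, Gm13340, had 112 and 93 reads. Whether the reads on these copies were transcribed in the nucleus or in mitochondria cannot be told apart.

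Among the 7 genes with at most 60.8% of windows shared, the order of levels per length was mt-Co1, mt-Nd1, mt-Cytb, mt-Nd5, mt-Nd2, mt-Nd4 and mt-Nd6 in the control library. The level of mt-Nd1 was 4034 (95% exact Poisson interval 4011 to 4058) and that of mt-Cytb 4018 (3996 to 4039), so these neighbours did not differ beyond counting error. The level of mt-Nd5 was 1514 (1503 to 1524), that of mt-Nd2 was 1291 (1279 to 1304), that of mt-Nd4 was 885 (875 to 894) and that of mt-Nd6 was 277 (269 to 286). In the senescent library mt-Nd1 stood at 4370 (4344 to 4397) and mt-Cytb at 3390 (3368 to 3411), no longer overlapping. There mt-Nd2, at 2217 (2199 to 2235), had passed mt-Nd5, at 1435 (1424 to 1446). The levels of mt-Nd4 and mt-Nd6 were 1027 and 282. Counting reads per 1000 unshared windows instead of per kilobase placed mt-Nd4, at 2428 in control and 2819 in senescent cells, above mt-Nd5 (1600 and 1518) and mt-Nd2 (1475 and 2531). This denominator was chosen after the data were seen. It gives a level only if reads in shared windows were not counted, which is not known here.

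**Figure D2:**
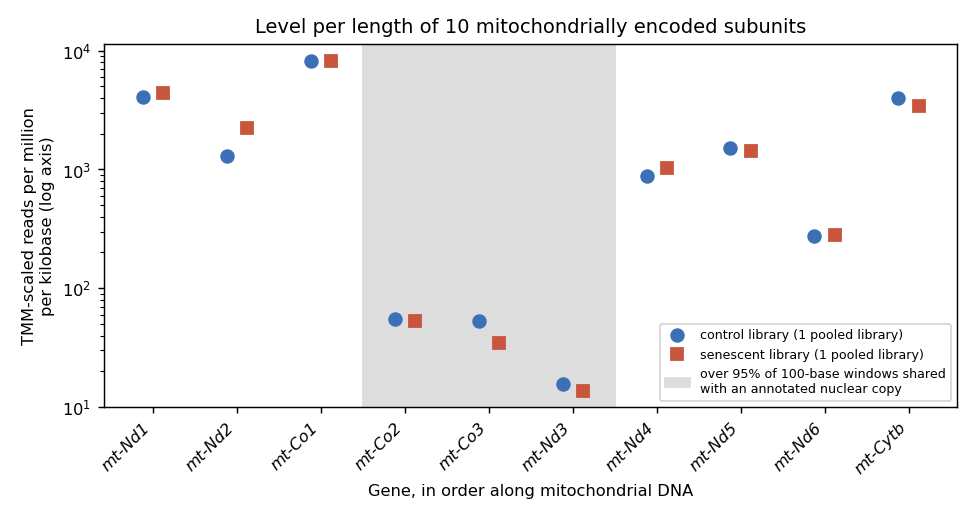
Level per length (TMM-scaled RPM per kilobase, log axis) of the 10 genes in their order along mitochondrial DNA, with circles for the control and squares for the senescent library. Grey marks mt-Co2, mt-Co3 and mt-Nd3, whose windows are almost all shared with a nuclear copy, and mt-Nd2 shows the widest gap between the libraries among the unshaded genes.

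The 10 genes together took 778489 reads, 2.78% of the 28021941 counted reads of the control library (95% Clopper-Pearson interval 2.77 to 2.78), and 675582 reads, 2.62% of the 25738075 of the senescent library (2.62 to 2.63). After TMM scaling, with factors of 1.04 and 0.964, the log2 ratio of the summed reads, senescent over control, was 0.03 (0.02 to 0.03). The share of the library was lower in senescent cells while this ratio was above 0, so the direction of the sum depends on the scaling. In a library from pooled cultures, a difference in the number of mitochondrial genomes and a difference in RNA from each cannot be told apart. The median log2 ratio of the 10 genes was -0.04, beside -0.02 over the 14383 genes with at least 10 reads over both libraries. No gene of the 10 was past the study's threshold of 1.5 in either direction, where 2.71% of those 14383 genes were higher and 5.60% lower with an interval without 0. Past a log2 ratio of 0.5, 1 gene was higher (mt-Nd2) and 1 lower (mt-Co3), beside 14.8% and 20.4% of all genes tested. Counting error alone left 0 out of the interval for 7 of the 10 genes, beside 68.6% of all genes tested. Of these, 3 lay above 0 and 4 below with TMM scaling, beside 34.0% and 34.6% of all genes. With an assumed biological coefficient of variation of 0.1 the interval left out 0 for 2 genes, mt-Nd2 and mt-Co3, and with 0.4 for none. Scaling by total counts moved the median of all genes by -0.11 on the log2 scale, and the directions given below are relative to TMM.

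The 6 complex I genes spread most widely. The gene mt-Nd2 (ENSMUSG00000064345, chrM:3914-4951) encodes an antiporter-like subunit of the proton-pumping arm. Its reads numbered 38979 (control) and 57070 (senescent), and its log2 ratio was 0.78 (95% Clopper-Pearson interval 0.76 to 0.80), or 71.7% more scaled reads, and 91.0% of all genes tested had a lower ratio. Its ratio stayed between 0.67 and 0.78 under every scaling tried.

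A second antiporter-like subunit is encoded by mt-Nd4 (ENSMUSG00000064363, chrM:10167-11544), with 35449 and 35096 reads. Its log2 ratio was 0.22 (0.19 to 0.24). The third, mt-Nd5 (ENSMUSG00000064367, chrM:11742-13565), had 80286 and 64925 reads and a ratio of -0.08 (-0.09 to -0.06). So the 3 genes for antiporter-like subunits did not move together. The ratio of mt-Nd4 was 0.56 below that of mt-Nd2 (counting interval of the difference -0.59 to -0.54).

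The gene mt-Nd1 (ENSMUSG00000064341, chrM:2751-3707) encodes a subunit beside the quinone-binding site. Reads on it numbered 112275 and 103724, and the log2 ratio, 0.12 (0.10 to 0.13), came down to 0.0084 when scaled by total counts. The gene mt-Nd3 (ENSMUSG00000064360, chrM:9459-9806) encodes a small subunit whose loop reaches the same site, and had only 158 and 118 reads. Its ratio was -0.19 with an interval of -0.55 to 0.16. Adding the reads of its copy brought this to -0.06. At this depth no difference of mt-Nd3 was detectable.

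The gene mt-Nd6 (ENSMUSG00000064368, chrM:13552-14070) encodes a membrane subunit of complex I and is the only one of the 10 on the minus strand. Its mRNA is known to carry little or no poly(A) tail. It was read 4187 times in control and 3624 times in senescent cells. Its log2 ratio was 0.02 (-0.04 to 0.09) and changed sign to -0.09 when scaled by total counts and to -0.02 by upper quartiles. Per length, the level of mt-Co1 was 29.8 times that of mt-Nd6 in the control library and 29.0 times in the senescent one, and the level of mt-Nd5 was 5.46 and 5.10 times that of mt-Nd6. The ratio of mt-Nd6 differed by -0.0038 from that of the summed reads of the 9 plus-strand genes (counting interval -0.07 to 0.06). The sign turned with the reference. The difference was 0.076 from the median of the 9 ratios and 0.092 (counting interval 0.03 to 0.16, without 0) from the summed plus-strand genes with no shared window. The last 14 bases of mt-Nd5 overlap mt-Nd6 on the other strand, and the use of strand in counting is not given in the sources used here, so RNA of either strand over mt-Nd6 cannot be told apart.

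Complex III has a single mitochondrially encoded subunit, cytochrome b, which holds both of its b-type hemes and its quinone sites. The gene mt-Cytb (ENSMUSG00000064370, chrM:14145-15288) was covered by 133659 control and 96179 senescent reads. Its log2 ratio was -0.25 (-0.26 to -0.23), a level 15.6% lower, and ranged down to -0.35 with total-count scaling. The difference from mt-Nd5, the nearest gene upstream on the same strand, was -0.17 (counting interval -0.19 to -0.15).

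In complex IV, mt-Co1 encodes the catalytic subunit with the heme and copper centre that reduces oxygen (ENSMUSG00000064351, chrM:5328-6872). It was the most read gene of the 10, with 371189 reads in control and 313280 in senescent cells. Its log2 ratio was -0.02 (-0.02 to -0.0082), and 50.0% of all genes tested had a lower ratio. The gene mt-Co2 (ENSMUSG00000064354, chrM:7013-7696) encodes the subunit that takes up electrons from cytochrome c. Reads numbered 1089 and 894, with a ratio of -0.05 (-0.18 to 0.07). The gene mt-Co3 (ENSMUSG00000064358, chrM:8607-9390), whose product is a core subunit without a redox centre, had 1218 and 672 reads and the lowest ratio of the 10, -0.63 (-0.77 to -0.49).

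Almost all windows of mt-Co3 are shared with its copy, so which reads make up its value is not known. The copy Gm28437 had a ratio of -0.50 (-0.61 to -0.40), and the 2 added together gave -0.55. Copies of mt-Co2 and mt-Nd3 had ratios of -0.11 (interval -0.23 to 0.01) and 0.01 (interval -0.25 to 0.26), beside -0.05 and -0.19 for the genes. Copies of mt-Nd4 and mt-Co1 had 0.24 (interval -0.01 to 0.49) and 0.11 (interval -0.05 to 0.26), beside 0.22 and -0.02 for the genes. For all 7 pairs on chromosome 1 the counting interval of the difference between copy and gene held 0, which at these depths does not show that they moved alike.

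**Figure D3:**
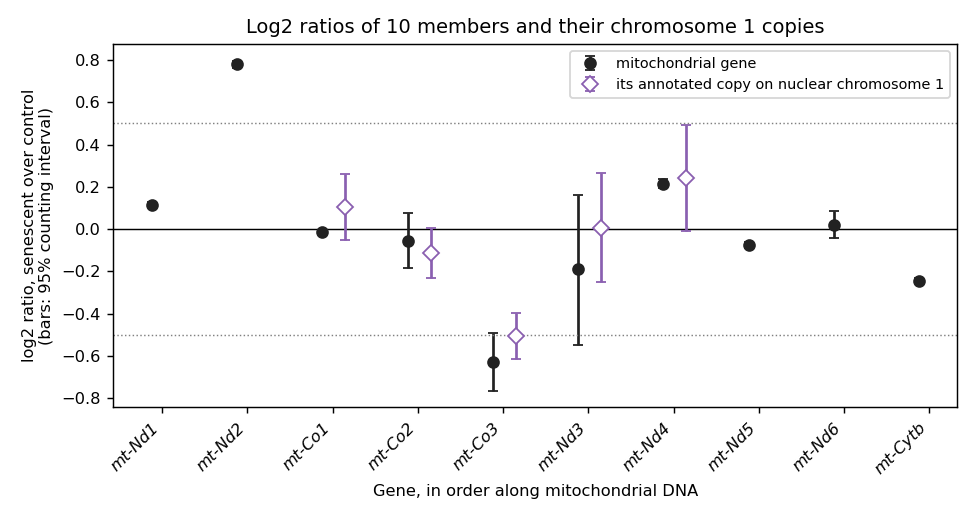
Log2 ratio of senescent over control for the 10 genes in their order along mitochondrial DNA (filled circles) and for the chromosome 1 copies of 5 of them (open diamonds), with 95% counting intervals that do not include biological variation. Dotted lines mark 0.5 and -0.5. Among the filled circles only mt-Nd2, at 0.78, and mt-Co3, at -0.63, lie outside them, and the diamond of Gm28437 lies at -0.50.

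Of the 8 steps between plus-strand genes that follow each other among the 10, 7 had a counting interval without 0. The exception was mt-Co1 to mt-Co2, at -0.04 (-0.17 to 0.09). This count was not made for pairs of other genes, and 68.6% of all single genes tested had an interval without 0. No biological variation was added to the intervals of these steps. The ratio stepped up by 0.66 (counting interval 0.64 to 0.69) from mt-Nd1 to mt-Nd2, which are 206 bases apart, and down by 0.79 from mt-Nd2 to mt-Co1, 376 bases further on (difference -0.79, interval -0.81 to -0.77). From mt-Nd4 to mt-Nd5 the difference was -0.29 (-0.32 to -0.27). From mt-Nd5 to mt-Cytb it was -0.17, as above. In none of these 4 pairs is a gene wholly shared with a nuclear copy. The other 3 steps with an interval without 0 involve mt-Co3 or mt-Nd3, whose reads are uncertain. They were -0.57 (-0.76 to -0.39) from mt-Co2 to mt-Co3, 0.44 (0.07 to 0.81) from mt-Co3 to mt-Nd3 and 0.41 (0.06 to 0.75) from mt-Nd3 to mt-Nd4. Between mt-Co2 and mt-Co3 lie mt-Atp8 and mt-Atp6, and between mt-Nd3 and mt-Nd4 lies mt-Nd4l, so these pairs are not direct neighbours. The library of pooled RNA gives no measure of how much such differences vary between cultures.

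The shares of the 10 genes in their own summed reads do not depend on library scaling. They do depend on how reads from shared windows were counted, which is not known here. The gene mt-Co1 took 47.7% of these reads in the control (95% Clopper-Pearson interval 47.6 to 47.8) and 46.4% in the senescent library (46.3 to 46.5). The share of mt-Nd2 was 5.01% (4.96 to 5.06) and 8.45% (8.38 to 8.51), and that of mt-Cytb was 17.2% (17.1 to 17.3) and 14.2% (14.2 to 14.3). The share of mt-Nd6 was 0.538% (0.522 to 0.554) and 0.536% (0.519 to 0.554). The gain of mt-Nd2 and the loss of mt-Cytb were the largest shifts. Intervals of the 2 libraries, which hold counting error only, did not overlap for mt-Nd2 or mt-Cytb. Nor did they for mt-Co1, mt-Nd1, mt-Nd4, mt-Nd5 and mt-Co3. They did overlap for mt-Nd6, mt-Co2 and mt-Nd3. The 3 fully shared genes together took 0.317% of these reads (control) and 0.249% (senescent).

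**Figure D4:**
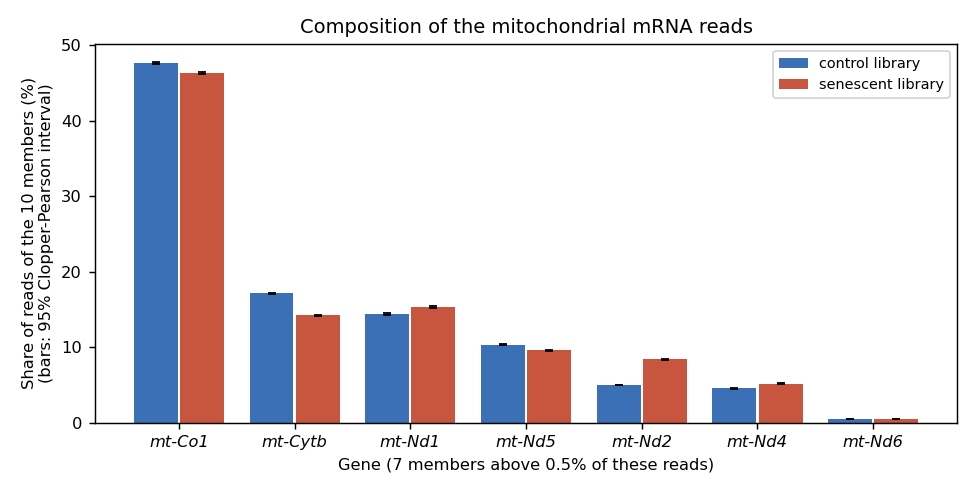
Share of the summed reads of the 10 genes (%) taken by each of 7 genes in the control and the senescent library, with 95% Clopper-Pearson intervals. The bars of mt-Nd2 are 5.01% and 8.45% and those of mt-Cytb 17.2% and 14.2%, and those of mt-Co1 47.7% and 46.4%.

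The 3 remaining mRNAs of mitochondrial DNA were read for comparison. The complex I gene mt-Nd4l had 35 control and 57 senescent reads (log2 ratio 0.91, interval 0.30 to 1.58), and its copy Gm10222 had 28 and 49. The ATP synthase gene mt-Atp6 had 604 and 396 reads (-0.38, interval -0.57 to -0.19), and its copy Gm10925 had 1756 and 1052 (-0.51, interval -0.62 to -0.40). For mt-Atp8 there were 0 control reads and 1 senescent read, both under the floor of 3 reads, so no fold is given. It shares no window with an annotated nuclear transcript, but lies between mt-Co2 and mt-Atp6, whose copies are neighbours on chromosome 1, and the bases between those copies were not analysed here. Mitochondrial rRNAs and tRNAs were not analysed here.

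The nuclear-encoded subunits of the same complexes were set beside the mitochondrial genes. All 36 nuclear-encoded complex I subunits on the list had a log2 ratio below 0 (beside 51.1% of all genes tested). Their median was -0.31, while the 6 mitochondrial ones among the 10 genes had a median of 0.07, a gap of 0.38. The gene mt-Nd4l (0.91, with 35 and 57 reads), also of complex I, was left out of this median. Past 0.5, 12 of the 36 were lower and 0 higher, beside 20.4% and 14.8% of all genes tested. Ndufb2, with 145 control and 36 senescent reads (-1.75, interval -2.35 to -1.25), was the only one past 1.5, and Ndufc2 (-0.76) and Ndufa6 (-0.74) followed, all accessory subunits. The ratios nearest to 0 were those of Ndufa8 (-0.05), Ndufa1 (-0.07) and Ndufb6 (-0.07). The mitochondrial genes mt-Nd1, mt-Nd2, mt-Nd4 and mt-Nd6 all lay above the highest of the 36, and mt-Nd3 and mt-Nd5 within their range.

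In complex III the order was the other way round. The 9 nuclear-encoded subunits had a median of -0.12, and 7 of them lay above mt-Cytb. Uqcrc1, a core subunit, had 5796 and 5876 reads (0.25, interval 0.20 to 0.30), and Uqcrq and Uqcr11 had ratios of 0.03 and -0.01. Uqcrb, at -0.50, and Uqcr10, at -0.29, were the 2 below mt-Cytb, and Uqcrc2 had -0.23. The 12 nuclear-encoded complex IV subunits with at least 10 reads had a median of -0.17, against -0.05 for the 3 mitochondrial ones. Cox4i1 had 12287 and 10510 reads and a ratio of 0.0042, Cox6a1 had 0.03 and Cox8a 0.10. Cox6c (-0.34), Cox7b (-0.72) and Cox7a1 (-1.13, with 252 and 98 reads) were lowest. The gap between the 2 genomes was thus 0.38 in complex I, -0.12 in complex III and 0.11 in complex IV, and with log2 ratios of summed reads it was 0.52, -0.16 and 0.14. The gaps were not tested against each other. The complex III gap rests on 1 mitochondrial gene, which lies within the range of the 9 nuclear-encoded subunits. The complex IV median is the ratio of mt-Co2, whose interval held 0, and mt-Co2 and mt-Co3 are almost wholly shared with nuclear copies.

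**Figure D5:**
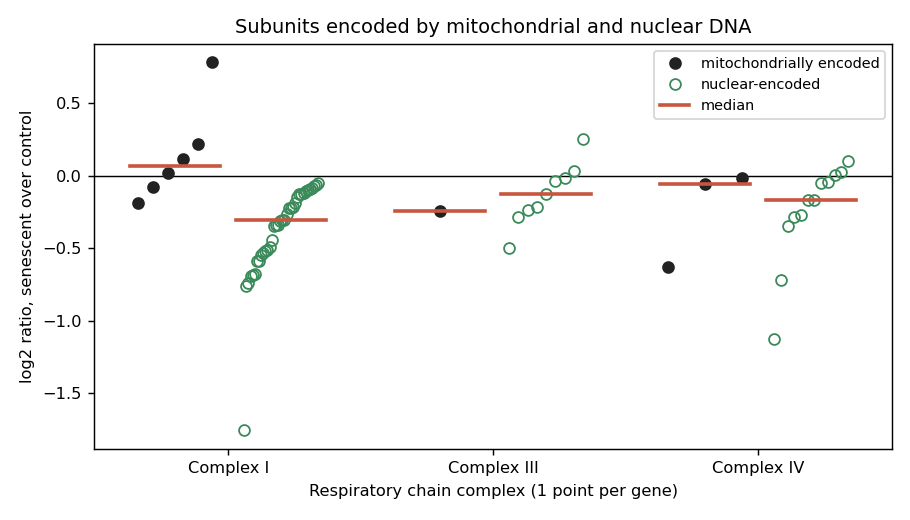
Log2 ratio of senescent over control for the 10 mitochondrial genes (filled points) and nuclear-encoded subunits with at least 10 reads (open points). Complexes I, III and IV are shown, with red lines at the medians. The complex I gene mt-Nd4l is not plotted. All 36 nuclear-encoded complex I points lie below 0. Of the 6 mitochondrially encoded complex I points plotted, 4 lie above it, of which mt-Nd6 falls below 0 with total-count or upper-quartile scaling.

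Genes that act on mitochondrial DNA and its RNA were listed from general knowledge. Of 18 genes of transcription and maintenance of mitochondrial DNA, 1 was higher and 2 lower past 0.5 (14.8% and 20.4% of all genes tested), with a median of 0.08. Twnk, the replicative helicase, had 2133 and 2974 reads (0.71, interval 0.63 to 0.79), Tfam, which packages the DNA and opens its promoters, had 1386 and 1605 (0.44, interval 0.34 to 0.55), and the transcription factor Tfb2m had 1002 and 1135 (0.41). The rRNA methyltransferase Tfb1m had 240 and 111 (-0.88, interval -1.22 to -0.55). Mterf1b (-0.71) and Mterf1a (-0.33), which encode mitochondrial termination factors, are close paralogs, so how their reads were divided is uncertain. Polrmt, the RNA polymerase that makes all 10 mRNAs, had 957 and 902 reads (0.14, interval 0.01 to 0.28) and is named here after its value was seen.

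Of 20 genes of mitochondrial RNA processing, polyadenylation and stability, 19 were found in the table under the symbol listed. Past 0.5, 8 were higher and 0 lower, with a median of 0.21, beside 14.8% and 20.4% of all genes. Lrpprc, whose product binds and stabilises mitochondrial mRNAs, had 2587 control and 3730 senescent reads (0.76, interval 0.68 to 0.83). Slirp, its binding partner, had 1116 and 692 (-0.46, interval -0.60 to -0.32) and was the lowest of the list. Tbrg4 and Fastkd1, of the FASTK family of RNA-binding proteins, had ratios of 0.73 and 0.71, and Fastk itself had -0.35. Hsd17b10, a part of the nuclease that cuts tRNA 5′ ends, had -0.38. Mtpap, the mitochondrial poly(A) polymerase, had 765 and 993 reads (0.61, interval 0.47 to 0.74) and is also named after its value was seen.

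The 15 mitochondrial translation factors had a median of 0.04, with 2 higher and 3 lower past 0.5, shares near the 14.8% and 20.4% of all genes tested. Among those with at least 100 reads, Ptcd3 (0.73), Mtfmt (0.22) and Oxa1l (0.18) were highest, and Mtrf1 (-0.83), Guf1 (-0.65) and Mtif2 (-0.55) lowest. Below that depth, Mss51 was also counted as higher, with 29 and 43 reads (0.78, interval 0.09 to 1.53). Of 25 assembly factors of cytochrome b and complex IV, 24 had at least 10 reads, with a median of -0.06, and 1 was higher and 4 lower past 0.5 (14.8% and 20.4% of all genes tested). Cox10, which makes heme O for complex IV, had 486 and 683 reads (0.72, interval 0.55 to 0.89), and Sco1 and Coa5 had 0.49 and 0.48. Cox16, at 15 and 4 reads (-1.48, interval -3.73 to -0.03), had the lowest ratio. Among genes with at least 100 reads Pet100 (-0.86), Cox20 (-0.83) and Tmem177 (-0.64) were lowest, and the products of the last 2 act on the subunit encoded by mt-Co2. Of 14 genes used as markers of mitochondrial mass, 4 were higher and 0 lower past 0.5 (14.8% and 20.4% of all genes tested), with a median of 0.29. They include Vdac2 (0.83), Hspd1 (0.75) and Tomm20 (0.66) at the top and Vdac3 (-0.07), Phb (-0.17) and Cycs (-0.23) at the bottom. On these lists of nuclear-encoded subunits and mitochondrial factors, Ndufb2 alone was past 1.5.

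The cell line label was checked against markers. Of 14 hepatocyte markers, 13 had at least 10 reads, and the keratin genes Krt8 and Krt18 and the regulator Hnf4a were read in both libraries (119403 and 144783, 40512 and 60941, and 8187 and 7705 reads). Alb, the albumin gene, had 32076 and 2917 reads (-3.23), Apoa1 had 2026 and 197 (-3.13), and Cps1 had 19 and 55 (1.71). Serpina1a had 102 and 32 (-1.42), and Apob had 22158 and 25094 (0.41). Ttr had 23146 and 10486 (-0.91). Few reads fell on the hepatocyte markers Trf (26 and 17), Afp (75 and 65) and Apoa2 (0 and 5). Past 0.5, 3 of the 13 were higher and 4 lower, beside 14.8% and 20.4% of all genes tested. Of the 5 cholangiocyte markers, 4 were read in both libraries, so these are not absent in this line. Krt19 had 22885 and 19177 reads (-0.03), Spp1 25430 and 10580 (-1.04), Krt7 3248 and 1026 (-1.43) and Sox9 3602 and 4454 (0.54), so Sox9 was higher and Spp1 and Krt7 were lower. Epcam had 0 reads and 1 read. The summed scaled level of the 5 cholangiocyte markers was 1897 RPM in control and 1421 in senescent cells. Of the 6 macrophage markers, Adgre1 had 0 reads and Lyz2 1 and 0. Their summed level, 194 and 82.1 RPM, came almost wholly from Cd14, with 5551 and 1879 reads, while Ptprc (27 and 76 reads, 1.68) and Csf1r (15 and 40 reads, 1.58) were past 1.5. Of the 9 fibroblast and stellate cell markers, 4 (Col1a2, Col3a1, Lum and Acta2) had 0 reads in both libraries, and Col1a1 had 21 reads and 1 read. Each of the 5 endothelial markers had at most 5 reads in a library. The part of these markers in the ratios of the mitochondrial genes was not tested.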

How the data were processed

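RNAseq was measured in 1 pooled library per condition. The authors deposited a raw count of reads per Ensembl gene, not normalized, after steps for which the submitters' processing notes name CASAVA, STAR, DESeq2, edgeR and mm10, without roles. The counter, annotation, strand setting and handling of reads with several matches are not given in the sources used here. The 2 columns were assigned by the initials of the sample titles. Of 35275 genes, 34490 had a GENCODE M21 symbol.

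Counts were scaled over the whole table with TMM (edgeR 4.0.16, R 4.3.3), with DESeq2 1.42.0 size factors, upper quartiles, total counts and TMM without mitochondrial genes as alternatives. Log2 ratios used a prior count of 1 in proportion to library size (0.125 and 5 as alternatives), and 95% Clopper-Pearson intervals of the share of each gene's reads found in the senescent library (Python 3.11.15, scipy 1.17.1). Differences between 2 genes carry normal-approximation intervals. Genes with at least 10 reads over both libraries were tested against thresholds of 1.5, from the study's methods, and 0.5. With 1 library per condition no p-value was computed. Copies were found with blastn 2.17.0. The ratio and interval were tried on simulated counts with Poisson error only, which cannot show how they behave with biological variation or shared reads. Genes of each list were named by a rule: all 10 members, the other mitochondrial mRNAs, the 3 highest and 3 lowest ratios of a list among genes with at least 100 reads, genes past 1.5, and copies with at least 100 reads. The copy Gm10222, Hnf4a, Ttr, Afp, genes under 100 reads and the genes marked in the text were named outside it, after their values were seen. Members and lists were chosen with earlier results of these data known.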

Additional observations from a re-analysis of the deposited data

How the results depend on the processing

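Each alternative was run on the 10 genes. Scaling by total counts brought their median log2 ratio from -0.04 to -0.14, as it lowered all genes, and DESeq2 size factors, upper quartiles, TMM without mitochondrial genes, both other prior counts, the added reads of nuclear copies and the 4 genes with no shared window (an alternative chosen after seeing the data) kept it between -0.07 and -0.03. Thresholds of 1 and 2 in place of 1.5 also counted 0 genes in either direction. The number of genes with an interval without 0 was 7, also with the other scalings and prior counts except 8 with total counts, and 8 with the reads of nuclear copies added. It was 2 with an assumed coefficient of variation of 0.1 and 0 with 0.4. Equal or similar numbers need not mean the same genes. With total counts the ratios of mt-Nd1 and mt-Nd6 were 0.0084 and -0.09, beside 0.12 and 0.02 with TMM. The difference of mt-Nd6 from the plus-strand genes was -0.0038 against their summed reads, 0.076 against the median of the 9 ratios and 0.092 (interval 0.03 to 0.16) against the plus-strand genes with no shared window (also chosen after seeing the data). No paired analysis was possible because each condition was 1 library, and for the same reason no library could be left out. Depth limits mt-Nd3, with 158 and 118 reads.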
